A study of Mus musculus with 8 samples.

Results

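The 34 genes described here mark the macrophages of the mouse liver: its resident Kupffer cells, the monocyte-derived macrophages that can join them, and the genes that both kinds of cell share. They were chosen by gene symbol, as a named list, with earlier results of these data known. All 34 were found among the 55450 gene rows of each deposited table. By role they fall into 6 resident Kupffer genes, 3 chains of complement C1q, 13 core and sensing genes of macrophages, 5 genes of recruited monocytes, 3 genes of lipid-associated macrophages and 4 genes of the major histocompatibility complex (MHC) class II pathway.

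Kupffer cells sit in the liver sinusoids, where they take up particles, dying cells and bacterial products that arrive with portal blood. They are seeded in the embryo and maintained locally, while circulating monocytes can enter an injured liver and become macrophages themselves. MHC class II molecules, which present peptides to helper T cells, are carried by both kinds of macrophage and also by dendritic cells and B cells. Alcohol feeding is a classical setting in which liver macrophages are studied, since it exposes them to more gut-derived bacterial product.

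RNA of whole liver was sequenced in 4 livers of mice with a hepatocyte knockout of Cebpa (CebpaΔHep, Cre+, called KO) and 4 livers of mice with floxed Cebpa and no Cre (Cebpa flox/flox, Cre-, called WT). All mice were 10 weeks old, and all of them were fed ethanol: 5 days on a liquid control diet were followed by 4 weeks on one that held 5% ethanol by volume. The promoter that drives Cre is not named in the labels. No ethanol-free liver is analysed here, so each value compares genotypes under ethanol and none measures a response to it. Cebpa encodes a transcription factor, and the labels place its deletion in hepatocytes, while the 34 genes are known mainly from macrophages.

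Expected counts, the fractional read counts of RSEM, summed to between 21048350 (WT 2) and 28148744 (KO 4) per liver. Levels are CPM, counts scaled to the depth of each library, on library sizes scaled by TMM, and 1 count was worth 0.0341 to 0.0485 CPM. Cebpa itself was at 5.44, 9.26, 7.31 and 6.24 CPM in KO livers 1 to 4, against 319.9, 263.6, 269.3 and 320.3 CPM in WT livers 1 to 4 (edgeR adjusted p = 4.78e-07), as the genotype labels say. The summed hepatocyte markers stood at 111341 to 125366 CPM in KO livers, against 86565 to 124270 CPM in WT livers, so the tissue label held. WT 2 stood apart from the other WT livers in the profile over all genes, with a chi-square per gene of 100.1 to 155.2 against them, where all other pairs within a genotype lay between 27.9 and 62.7. The titles number the livers 1 to 4 in each genotype and nothing else ties them to animals, so p-values measure the spread between these livers.

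Promoter letters of 4 members are shown because they carry the boxes for which the class II and macrophage genes are known: the X and Y boxes of class II genes, to which the RFX and NF-Y factors bind, and the PU box, to which the product of Spi1 (PU.1) binds. RefSeq promoter windows on GRCm38.p6, from 250 bases before to 50 bases after each gene's RefSeq start, were at hand for 26 of the 34 members. For C1qc that start differs from the one in the GENCODE annotation, base 136893065, which lies inside the window. The letters searched on both strands were AACNGATG for the core of the X box and CTGATTGG for the Y box. Searched in the same way were GAGGAAGT for the PU box and TTGCNNAA for C/EBP factors. TTGCNNAA, with its open letters N, is a loose word for a C/EBP site and is not a palindrome. In capitals below are the X and Y boxes of H2-Eb1, chr17:34305617-34305916 on the plus strand, the Y box of H2-Aa, chr17:34287774-34288073 on the minus strand, and the PU boxes, read on the opposite strand as ACTTCCTC, of C1qc, chr4:136892865-136893164 on the minus strand, and Ctss, chr3:95526536-95526835 on the plus strand.
H2-Eb1: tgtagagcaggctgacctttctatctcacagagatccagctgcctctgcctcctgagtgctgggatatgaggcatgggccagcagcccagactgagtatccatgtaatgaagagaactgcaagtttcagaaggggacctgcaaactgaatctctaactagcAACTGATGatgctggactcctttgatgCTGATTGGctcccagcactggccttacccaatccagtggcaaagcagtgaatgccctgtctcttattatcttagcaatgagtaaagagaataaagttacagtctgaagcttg
H2-Aa: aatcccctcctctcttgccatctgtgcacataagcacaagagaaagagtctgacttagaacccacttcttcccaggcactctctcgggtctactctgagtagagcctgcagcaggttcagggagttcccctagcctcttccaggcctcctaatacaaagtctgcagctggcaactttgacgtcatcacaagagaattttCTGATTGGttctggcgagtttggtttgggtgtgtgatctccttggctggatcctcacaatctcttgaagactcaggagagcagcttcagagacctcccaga
C1qc: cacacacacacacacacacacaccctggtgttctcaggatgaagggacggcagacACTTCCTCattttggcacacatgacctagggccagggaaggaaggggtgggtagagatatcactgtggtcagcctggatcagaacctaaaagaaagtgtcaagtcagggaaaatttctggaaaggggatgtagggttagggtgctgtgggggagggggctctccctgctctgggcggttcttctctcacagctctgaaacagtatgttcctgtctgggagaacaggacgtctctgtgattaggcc
Ctss: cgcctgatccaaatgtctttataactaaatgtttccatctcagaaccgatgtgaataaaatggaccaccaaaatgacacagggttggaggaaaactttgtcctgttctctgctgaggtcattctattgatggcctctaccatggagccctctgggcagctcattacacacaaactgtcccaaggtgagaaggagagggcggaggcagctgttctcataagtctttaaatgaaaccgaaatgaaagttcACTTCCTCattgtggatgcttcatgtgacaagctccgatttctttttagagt
The X box core stood at bases 162 to 169 of the H2-Eb1 window and the Y box at bases 189 to 196, and in H2-Aa the Y box stood at bases 200 to 207. The X box core was in 2.32% of all 32851 promoter windows and in 2 of the 26 member windows, those of H2-Eb1 and Ctss, and the Y box was in 4.1% of all windows and 2 of the 26. The PU box was in 3.2% of all windows and in 3 of the 26, those of C1qc, Ctss and Ly6c2. The C/EBP word TTGCNNAA was in 10.8% of all windows and in 2 of the 26, those of Cd68 and Trem2. These are matches of letters and were not tested as sites.

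All 31 members with enough counts for the test had a higher fitted level in KO than in WT livers, by small amounts, and none passed the test. The median log2 fold change of the 31 was 0.55, against 0.00 over the 13303 genes tested, of which 50.7% were positive. With edgeR's quasi-likelihood test and an adjusted p threshold of 0.05, 0 of the 31 were called, where 2.06% of all tested genes were called, 0.849% higher and 1.21% lower in KO. The smallest adjusted p among the members was 0.112, for H2-Eb1. At an unadjusted p under 0.05, 17 of the 31 were higher in KO and none lower, where 9.61% of all genes were higher and 8.9% lower at that p. That count depended on single livers: it was 6 without KO 2, 7 without WT 4 and 8 without either KO 4 or WT 1, and 22 without KO 1 or without WT 2. The share of all genes higher at that p was 6.81%, 8.26%, 10.9% and 8.04% without KO 2, WT 4, KO 4 and WT 1. It was 8.26% without KO 1 and 8.85% without WT 2. DESeq2 called 3 of the members, Lyz2 (adjusted p = 0.0134), H2-Ab1 (adjusted p = 0.0320) and H2-Eb1 (adjusted p = 0.0121), where it called 5.8% of all genes. With limma-voom 0 members were called, where it called 1.74% of all genes. Without WT 2 and KO 4 the median log2 fold change of the members was 0.69. In that fit edgeR again called 0 of them, where it called 3.22% of all genes. In bulk RNA, more cells of a type and more RNA per cell cannot be told apart, and this holds for every level below.

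**Figure D1:**
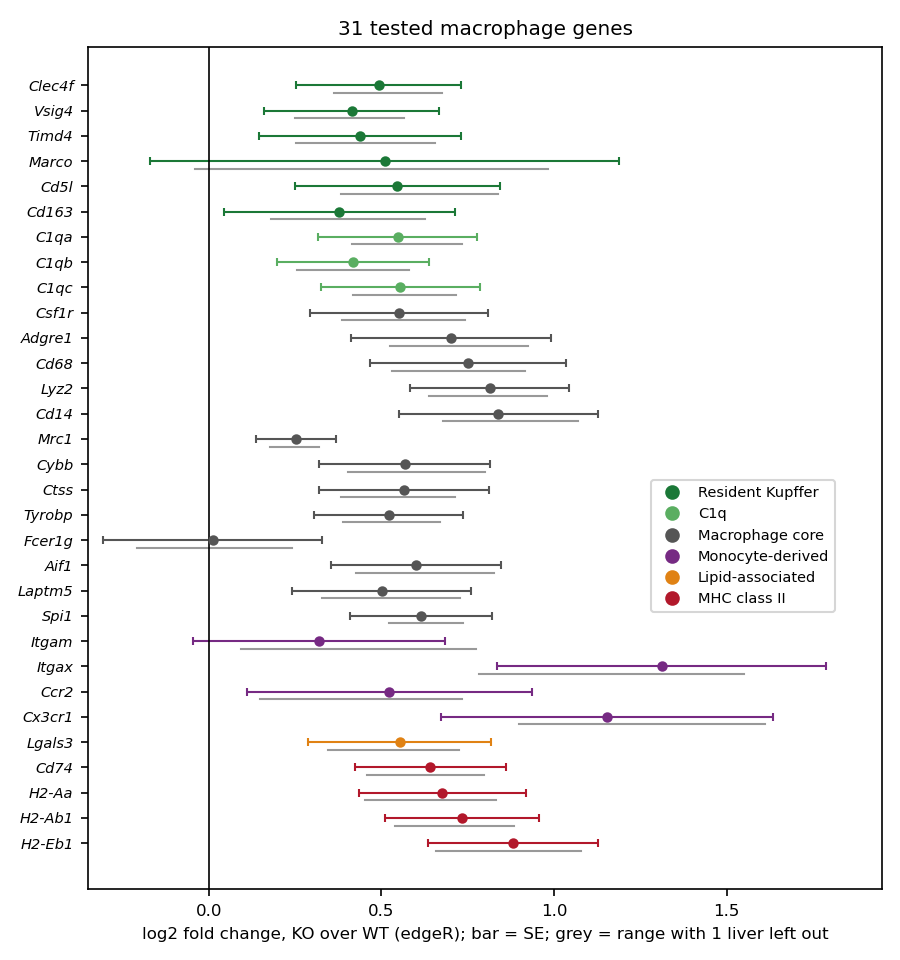
Log2 fold change of the 31 tested members, KO over WT, with points at the edgeR estimate, bars of 1 SE and grey lines over the range when each liver is left out in turn. All 31 points lie right of 0, from 0.01 for Fcer1g to 1.31 for Itgax, and the grey lines of Fcer1g and Marco cross 0.

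The groups overlapped for nearly all members. H2-Eb1 alone was higher in every KO liver than in any WT liver, 1 of the 31, where this held for 5.52% of all tested genes, and none was lower in every KO liver, where 5.92% of all genes were. In the authors' TPM the genes with this separation were instead Cd68 and Lyz2, 2 of the 31 where 10.2% of all genes separated, while H2-Eb1 overlapped. The livers kept much the same order from member to member. WT 1 or WT 4 was the lowest of the 8 livers for 30 of the 31 members, against 21.3% of all genes, and both lay below WT 2 and WT 3 for 26 of the 31, against 15.8% of all genes. KO 2 was the highest liver for 25 of the 31, against 15.2% of all genes, a KO liver was the highest for 29, against 51.3% of all genes, and KO 1 was the lowest KO liver for 25, against 23.6% of all genes. The members' levels share their libraries and are not independent of each other. Without KO 1, 15 of the 31 were higher in every remaining KO liver than in any WT liver, where 7.99% of all genes were, and without WT 3 the number was 8, where 8.16% of all genes were.

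**Figure D2:**
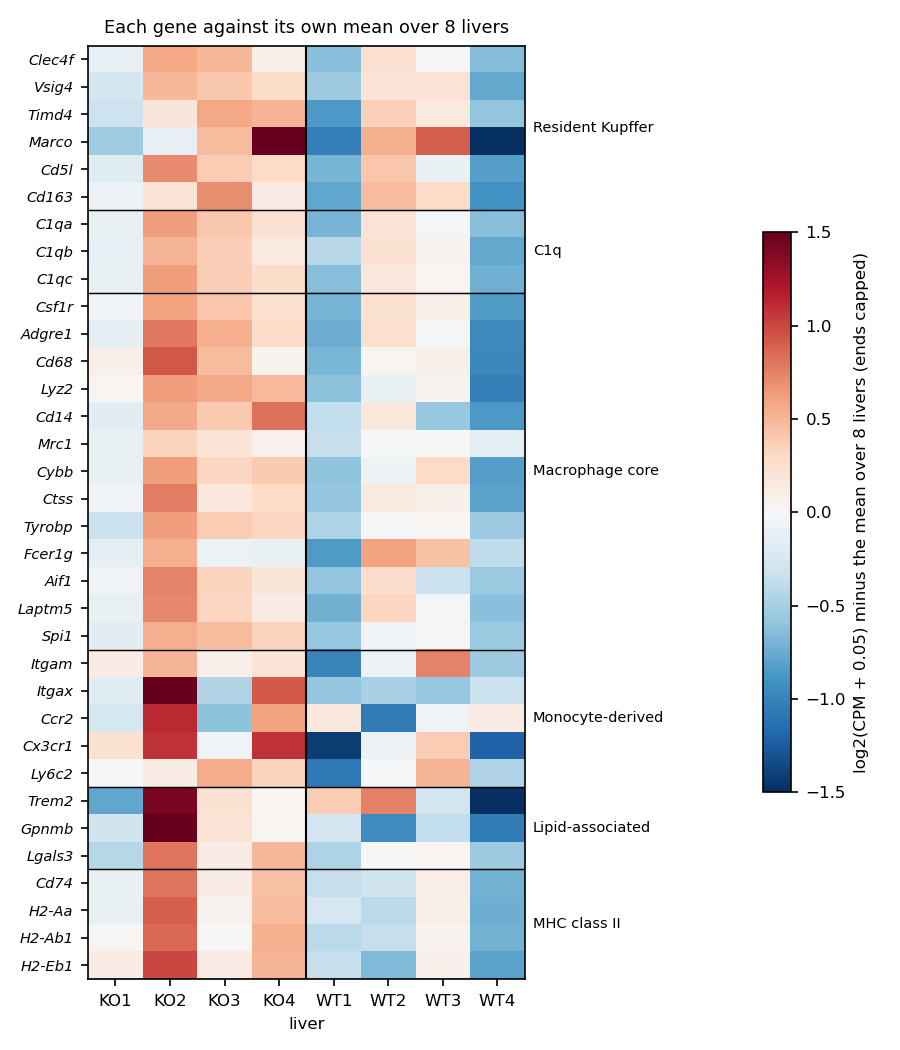
Level of each member in each of the 8 livers as log2(CPM + 0.05) minus the member's mean over the livers, with KO livers left of WT livers and members in rows by role, the colours capped at 1.5 either way. The columns of WT 1 and WT 4 are the low ones in nearly every row, and the column of KO 2 is the high one in most.

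Per transcript length, on the authors' TPM, the class II invariant chain and the Kupffer genes Clec4f and Cd5l led the 34. Cd74 was the highest, at a mean of 91.4 TPM in KO and 54.1 TPM in WT livers. Clec4f followed at 74.8 TPM in KO and 49.9 TPM in WT livers, and Cd5l at 64.1 and 40.7 TPM in the same order. C1qa was the fourth, at 63.3 TPM in KO and 40.3 TPM in WT livers. The 4 leaders kept their ranks in both genotypes. The other resident Kupffer genes were lower, with Vsig4, Marco, Cd163 and Timd4 at ranks 13, 15, 21 and 26 in KO livers. The monocyte genes and the lipid-associated genes Trem2 and Gpnmb sat at the low end, with Gpnmb at 0.247 TPM in KO and 0.0975 TPM in WT livers and Cx3cr1 at 0.37 TPM in KO and 0.155 TPM in WT livers.

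**Figure D3:**
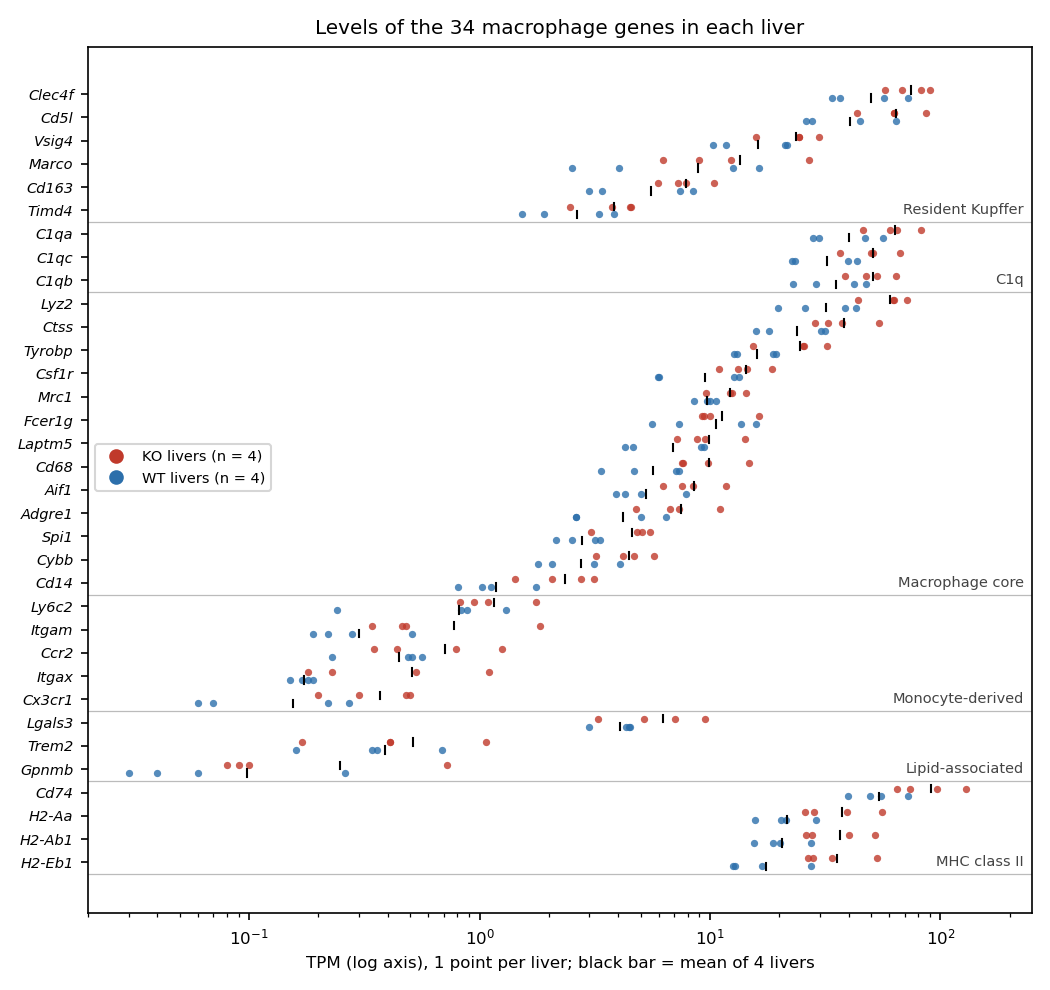
TPM on a log axis of all 34 members, in rows by role, with 1 point for each liver, KO above WT within a row, and black bars at the group means. The C1q and class II genes lie far right of the monocyte genes in both genotypes, and the points of KO and WT overlap for nearly every gene.

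The 6 resident Kupffer genes had a median log2 fold change of 0.46, with values from 0.38 to 0.55. Of the 6, 0 reached an unadjusted p under 0.05, where 9.61% of all tested genes were higher and 8.9% lower. Clec4f, a lectin receptor that in mice marks Kupffer cells, was at 58.7, 95.8, 90.3 and 67.2 CPM in KO livers 1 to 4, against 41.5, 75.6, 64.2 and 40.8 CPM in WT livers 1 to 4. WT 2 and WT 3 lay among the KO livers, and WT 1 and WT 4 lay below all of them. The fitted log2 fold change, 0.49 (SE 0.24), had an edgeR adjusted p of 0.313. A replicate block for the liver number gave an edgeR adjusted p of 0.0411 for it, in a fit that called 1.32% of all genes. In both genotypes Clec4f was above the genotype's mean in livers 2 and 3 and below it in livers 1 and 4. Over all tested genes such pairing was weak or absent, with correlations of 0.207, 0.009, -0.024 and -0.067 for numbers 1 to 4. The labels do not say what the numbers mark, so whether the block is warranted for Clec4f was not tested. Cd5l, which encodes a secreted protein that protects macrophages from apoptosis, was at 61.1, 113.5, 90.3 and 85.3 CPM in KO livers, against 42.7, 93.0, 65.0 and 39.3 CPM in WT livers. Within each genotype its order of livers was that of Clec4f, and the fitted log2 fold change, 0.55 (SE 0.30), had an edgeR adjusted p of 0.370.

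Vsig4, a complement receptor that takes up opsonised particles, averaged 21.3 ± 4.62 CPM in KO and 16.0 ± 5.39 CPM in WT livers (SD, n = 4 each). Timd4, a receptor for phosphatidylserine on dying cells and a marker of long-lived resident macrophages, averaged 5.65 ± 1.47 CPM in KO and 4.18 ± 1.64 CPM in WT livers (SD, n = 4 each). Cd163, the scavenger receptor for haemoglobin and haptoglobin, averaged 20.7 ± 5.11 CPM in KO and 16.0 ± 7.47 CPM in WT livers (SD, n = 4 each). For these 3 genes the difference of the means was smaller than the SD of either group or close to it, and their edgeR adjusted p-values were 0.421, 0.460 and 0.583.

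Marco, a scavenger receptor for bacteria, had its livers in another order than Clec4f and Cd5l. It was at 8.22, 11, 16.5 and 33.6 CPM in KO livers 1 to 4, against 5.82, 17.2, 22.3 and 3.56 CPM in WT livers 1 to 4. KO 4 was the highest and WT 4 the lowest, with WT 2 and WT 3 above KO 2. The fitted log2 fold change, 0.51 (SE 0.68), had an edgeR adjusted p of 0.726, and without KO 4 the fold change was -0.04.

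C1qa, C1qb and C1qc encode the 3 chains of C1q, which starts the classical complement pathway and which macrophages supply. The genes are neighbours on chromosome 4 of mm10, with C1qb at 136880129 to 136886187, C1qc at 136889804 to 136893065 and C1qa at 136895917 to 136898803, all on the minus strand. C1qa was at 29.8, 49.6, 42.6 and 37.8 CPM in KO livers, against 19.9, 37.4, 31.6 and 20.6 CPM in WT livers. C1qc was at 28.4, 47.7, 39.9 and 37.2 CPM in KO livers, against 19.7, 34.5, 31.4 and 18.7 CPM in WT livers. C1qb was at 26.4, 40.9, 37.0 and 31.5 CPM in KO livers, against 21.5, 33.6, 29.7 and 16.9 CPM in WT livers. In each of the 3 genes WT 2 and WT 3 fell inside the range of the KO livers and WT 1 and WT 4 below it.

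The log2 fold changes of C1qa, C1qc and C1qb were 0.55 (SE 0.23), 0.55 (SE 0.23) and 0.42 (SE 0.22), with edgeR adjusted p-values of 0.250, 0.244 and 0.350. Of the 3, C1qa and C1qc had an unadjusted p under 0.05, where 9.61% of all tested genes were higher at that p. The chains kept close proportions within a liver: on the TPM scale C1qa over C1qb averaged 1.24 ± 0.0411 in KO and 1.14 ± 0.130 in WT livers (SD, n = 4 each), with 0.979 the lowest and 1.29 the highest liver. C1qc over C1qb averaged 1.00 ± 0.0504 in KO and 0.912 ± 0.0710 in WT livers (SD, n = 4 each). Both ratios had the higher mean in KO, for C1qc over C1qb by more than the SD of either group, and neither was tested.

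The 13 core and sensing genes had a median log2 fold change of 0.57, from 0.01 to 0.84. Of the 13, 9 had an unadjusted p under 0.05, where 9.61% of all tested genes were higher at that p. Lyz2, which encodes lysozyme, was at 37.8, 56.9, 55.0 and 51.7 CPM in KO livers, against 24.2, 34.2, 38.1 and 18.2 CPM in WT livers. Only KO 1 lay inside the WT range, just below WT 3. The fitted log2 fold change, 0.81 (SE 0.23), had an edgeR adjusted p of 0.114, and the fold change ran from 0.64 to 0.98 when each liver was left out in turn. Reads of Lyz2 may be shared with its paralog Lyz1, so its level is less certain than that of a gene without a copy. Cd14, the co-receptor for bacterial lipopolysaccharide, was at 1.57, 2.65, 2.33 and 3.17 CPM in KO livers, against 1.35, 1.99, 1.18 and 0.954 CPM in WT livers, with WT 2 above KO 1 (log2 fold change 0.84, SE 0.29, edgeR adjusted p = 0.161).

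Csf1r, the receptor for the macrophage growth factors Csf1 and Il34, was at 34.6, 54.7, 47.9 and 42.6 CPM in KO livers, against 22.2, 42.3, 38.2 and 20.1 CPM in WT livers. Its log2 fold change came to 0.55 (SE 0.26, edgeR adjusted p = 0.295). Adgre1, an adhesion receptor used to identify mouse macrophages, was at 10.1, 19.3, 16.2 and 13.6 CPM in KO livers, against 6.63, 13.2, 11 and 5.72 CPM in WT livers, a log2 fold change of 0.70 (SE 0.29, edgeR adjusted p = 0.243). Cd68, a glycoprotein of late endosomes and lysosomes, averaged 7.61 ± 2.34 CPM in KO and 4.52 ± 1.59 CPM in WT livers (SD, n = 4 each), a log2 fold change of 0.75 (SE 0.28, edgeR adjusted p = 0.200). In Csf1r and Adgre1, as in Clec4f, the WT livers split into a low pair, WT 1 and WT 4, and a pair inside the KO range. The gene Hmgxb3 overlaps Csf1r on the opposite strand, and whether the counting used strand is not given in the sources used here.

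Spi1, which encodes the transcription factor PU.1 of the myeloid lineage, was at 3.55, 5.81, 5.53 and 5.08 CPM in KO livers, against 2.66, 3.83, 3.88 and 2.69 CPM in WT livers. KO 1 alone lay inside the WT range, and the log2 fold change of Spi1 stood at 0.61 (SE 0.21, edgeR adjusted p = 0.155). Cybb, the catalytic subunit of the phagocyte NADPH oxidase, averaged 15.0 ± 3.01 CPM in KO and 10.1 ± 3.58 CPM in WT livers (SD, n = 4 each). Ctss, the lysosomal protease cathepsin S that trims the class II invariant chain, averaged 32.9 ± 8.30 CPM in KO and 22.2 ± 7.02 CPM in WT livers (SD, n = 4 each). Both had a log2 fold change of 0.57 (SE 0.25 for each), with edgeR adjusted p-values of 0.262 and 0.267.

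Tyrobp and Fcer1g encode signalling adaptors of immune receptors. Tyrobp averaged 7.38 ± 1.89 CPM in KO and 5.15 ± 1.05 CPM in WT livers (SD, n = 4 each), a log2 fold change of 0.52 (SE 0.22, edgeR adjusted p = 0.235). Fcer1g was at 3.41, 5.54, 3.56 and 3.51 CPM in KO livers, against 2.08, 5.77, 5.18 and 2.91 CPM in WT livers. WT 2 was the highest liver and the means were nearly equal, with a log2 fold change of 0.01 (SE 0.32, edgeR adjusted p = 0.990). The sign of this small value turned when KO 2, WT 1 or WT 4 was left out. Of the remaining core genes, the actin-binding Aif1 and the lysosomal Laptm5 had log2 fold changes of 0.60 and 0.50 (edgeR adjusted p = 0.229 and 0.340). The mannose receptor Mrc1, which sinusoidal endothelium also carries, averaged 38.5 ± 5.10 CPM in KO and 32.3 ± 3.59 CPM in WT livers (SD, n = 4 each), a log2 fold change of 0.25 (SE 0.12, edgeR adjusted p = 0.278).

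The genes of recruited monocytes were near the limit of detection, and the log2 fold changes of the 4 tested ran from 0.32 to 1.31. Itgax, an integrin chain of dendritic cells and of activated macrophages, was at 0.674, 2.57, 0.548 and 1.5 CPM in KO livers, against 0.496, 0.534, 0.502 and 0.607 CPM in WT livers. KO 2 and KO 4 stood far above every WT liver, while KO 1 lay just above the WT range and KO 3 inside it. The fitted log2 fold change, 1.31 (SE 0.48), had an edgeR adjusted p of 0.185, and the fold change came to 0.78 at the lowest when each liver was left out in turn. Cx3cr1, the receptor for Cx3cl1, was at 0.674, 1.27, 0.548 and 1.26 CPM in KO livers, against 0.181, 0.534, 0.758 and 0.217 CPM in WT livers, with WT 3 above KO 1 and KO 3 (log2 fold change 1.15, SE 0.48, edgeR adjusted p = 0.236). The gene model of Cx3cr1 overlaps several others on either strand, so its few counts are uncertain.

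Ccr2, the receptor through which monocytes follow Ccl2, was at 1.12, 3.01, 0.868 and 2.09 CPM in KO livers, against 1.53, 0.631, 1.31 and 1.47 CPM in WT livers. The groups overlapped, with KO 1 and KO 3 below 3 of the WT livers, and the fitted log2 fold change, 0.52 (SE 0.41), had an edgeR adjusted p of 0.531. Itgam, the integrin chain of monocytes and neutrophils, was at 1.12, 1.5, 1.10 and 1.19 CPM in KO livers, against 0.496, 0.970, 1.77 and 0.694 CPM in WT livers (log2 fold change 0.32, SE 0.37, edgeR adjusted p = 0.675). WT 3 was its highest liver in CPM, while in TPM KO 3 was, and the gene overlaps another on its own strand. Ly6c2, the surface antigen of inflammatory monocytes, had too few counts for the test, 7.56, 9.32, 11.4 and 12.92 expected counts in KO livers, against 3, 7, 12 and 5.42 in WT livers. Fractional counts arise where reads are divided among genes of a family, so its level is uncertain. Over the 4 tested genes the median log2 fold change was 0.84, but it was 0.29 on the log2(TPM + 1) scale, which shrinks the difference of genes this low.

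The 3 genes of lipid-associated macrophages, a state described in fatty and fibrotic tissue, had KO 2 as their highest liver, and 2 of them were scarce. Trem2, a lipid-sensing receptor, had 3, 20, 7 and 8 counts in KO livers 1 to 4, against 8, 10, 5 and 1 counts in WT livers 1 to 4. Gpnmb, a membrane glycoprotein of lipid-laden phagocytes, had 4, 45, 6 and 7 counts in KO livers, against 4, 2, 4 and 2 counts in WT livers. Without KO 2, Gpnmb was within a few counts of WT in every liver, and neither gene passed the filter on low counts. With no filter the log2 fold change was 2.16 for Gpnmb (edgeR adjusted p = 0.247) and 0.48 for Trem2 (edgeR adjusted p = 0.719). Lgals3, a galectin that many cell types make, was at 2.78, 6.61, 4.07 and 5.32 CPM in KO livers, against 2.71, 3.74, 3.83 and 2.56 CPM in WT livers. KO 1 lay inside the WT range, and the log2 fold change came to 0.55 (SE 0.27, edgeR adjusted p = 0.298).

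All 4 class II genes had an unadjusted p under 0.05, with log2 fold changes from 0.64 to 0.88 and a median of 0.70. Of all tested genes, 9.61% were higher at that p, and edgeR called 0 of the 4. H2-Eb1, the beta chain of the I-E molecule, was at 17.7, 32.6, 17.7 and 23.1 CPM in KO livers, against 12.8, 10.2, 17.1 and 9.32 CPM in WT livers. Its lowest KO livers stood just above WT 3, so the separation is narrow, and the fitted log2 fold change, 0.88 (SE 0.25), had an edgeR adjusted p of 0.112. H2-Ab1, the beta chain of I-A, was at 20.2, 36.2, 19.9 and 28.7 CPM in KO livers, against 15.0, 15.6, 20.6 and 12.1 CPM in WT livers, with WT 3 above KO 1 and KO 3 (log2 fold change 0.73, SE 0.22, edgeR adjusted p = 0.133). The gene Gm20513 overlaps H2-Eb1 on the opposite strand.

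H2-Aa, the alpha chain of I-A, was at 18.5, 37.1, 20.6 and 27.4 CPM in KO livers, against 16.7, 15.0, 21.2 and 12 CPM in WT livers, a log2 fold change of 0.68 (SE 0.24, edgeR adjusted p = 0.187). Cd74, the invariant chain that guards the peptide groove, was at 52.8, 98.0, 61.1 and 76.5 CPM in KO livers, against 44.3, 45.9, 60.4 and 34.3 CPM in WT livers, a log2 fold change of 0.64 (SE 0.22, edgeR adjusted p = 0.169). In all 4 genes KO 2 was the highest and KO 4 the next, and WT 4 was the lowest. In the resident genes, by contrast, WT 2 stood inside the KO range; that difference in order was not tested. On the TPM scale H2-Aa over H2-Ab1 averaged 1.01 ± 0.0727 in KO and 1.05 ± 0.0623 in WT livers (SD, n = 4 each), so the 2 chains of I-A stayed in proportion. H2-Eb1 over H2-Ab1 varied more, at 0.976 ± 0.0970 in KO and 0.839 ± 0.157 in WT livers (SD, n = 4 each). It ran from 0.625 in WT 2 to 1.08 in KO 3, and these ratios were not tested.

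Summed over each class, the resident genes came to 162.7, 270.7, 255.6 and 233.1 CPM in KO livers 1 to 4, against 114.7, 235.8, 198.4 and 106.3 CPM in WT livers 1 to 4. The class II genes came to 109.1, 203.9, 119.3 and 155.7 CPM in KO livers, against 88.7, 86.7, 119.3 and 67.7 CPM in WT livers. The monocyte genes came to 3.93, 8.72, 3.58 and 6.49 CPM in KO livers, against 2.84, 3.01, 4.84 and 3.23 CPM in WT livers. In each class the ranges of the 2 genotypes overlapped, and WT 2, which was the highest WT liver for the resident sum, was next to the lowest for the class II sum. The log2 ratio of the means, KO over WT, was 0.49 for the resident sum, 0.51 for C1q, 0.55 for the core genes, 0.70 for class II and 0.71 for the monocyte genes.

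**Figure D4:**
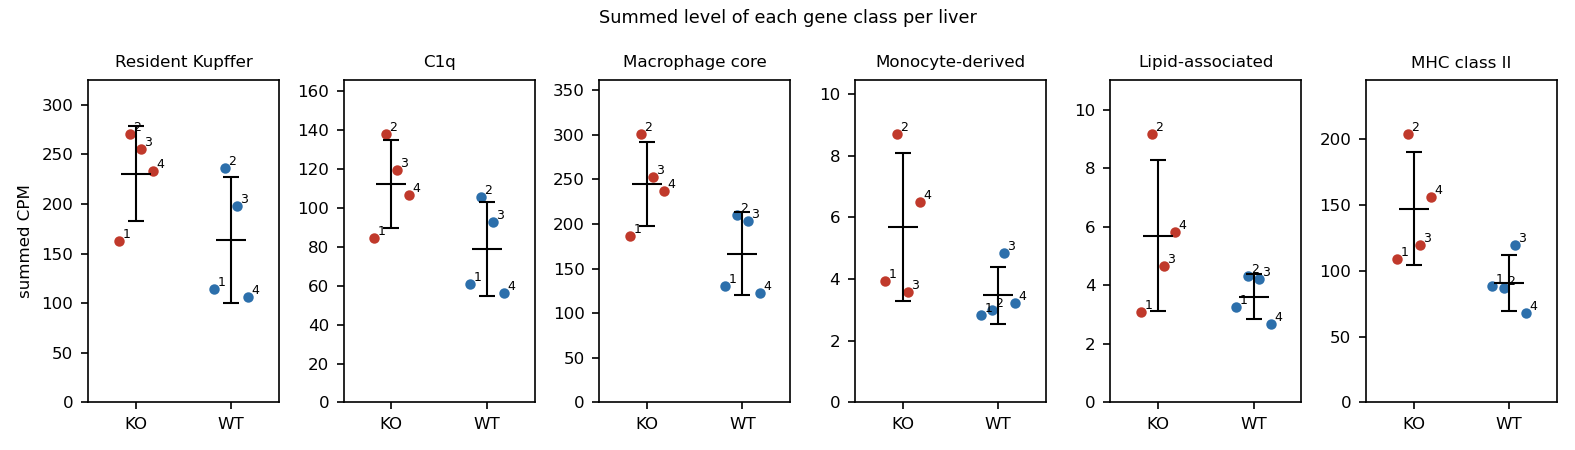
Summed CPM of each of the 6 classes of members in every liver, KO left of WT, with the mean and SD of each group and the liver number beside each point. KO means are above WT means in all 6 panels, and in each panel the points of the groups overlap.

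Divided by the resident sum of the same liver, the classes hardly differed between genotypes. C1q stood at 0.489 ± 0.0313 of the resident sum in KO and 0.494 ± 0.0432 in WT livers (SD, n = 4 each). These are ratios of CPM, not scaled to gene length, and in TPM C1q averaged 0.881 in KO and 0.894 in WT livers. The core genes stood at 1.07 ± 0.0762 in KO and 1.05 ± 0.121 in WT livers (SD, n = 4 each). The class II genes stood at 0.671, 0.753, 0.467 and 0.668 of the resident sum in KO livers, against 0.773, 0.368, 0.601 and 0.637 in WT livers, with the highest and the lowest value both in WT. The monocyte genes stood at 0.0246 ± 0.00776 in KO and 0.0231 ± 0.00739 in WT livers (SD, n = 4 each). Each of these differences of the means was smaller than the SD of either group of 4 livers, and these proportions were not tested.

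**Figure D5:**
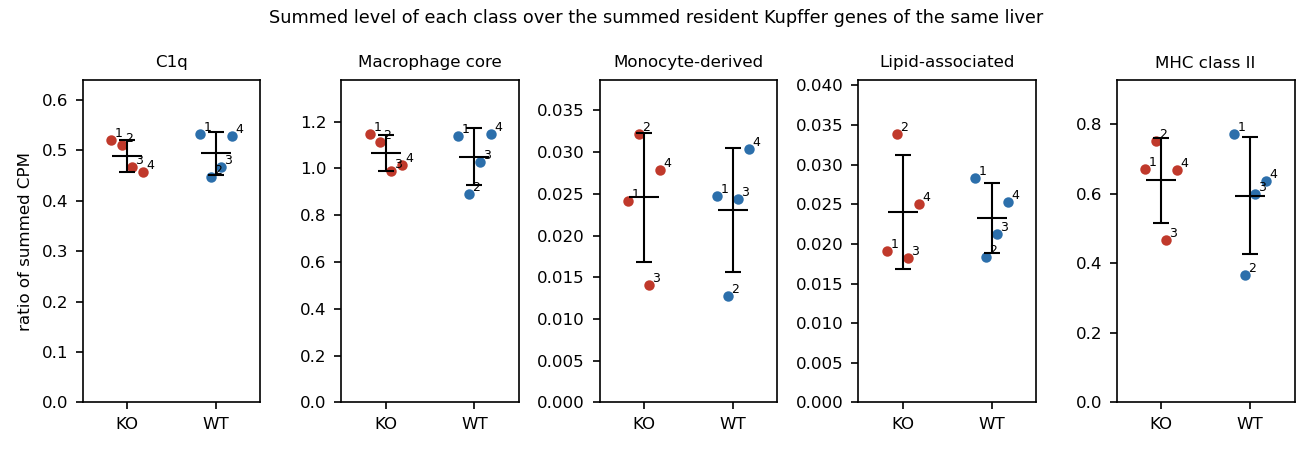
Summed CPM of 5 classes of members divided by the resident sum of the same liver, KO left of WT, with the mean and SD of each group and the liver number beside each point. The means of KO and WT lie within 1 SD of each other in every panel, and WT 2 is the lowest liver for class II.

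Other genes of these cells were read from 3 further lists. Of 41 further macrophage genes 37 were tested, and 31 were positive (median log2 fold change 0.36), with 11 higher and 1 lower at an unadjusted p under 0.05. Over all tested genes, 50.7% were positive, and 9.61% were higher and 8.9% lower at that p. Of the 37, edgeR called 1, higher in KO, where 0.849% of all tested genes were called higher. Most fits that left out a single liver lost that call. Ms4a7, a membrane protein of macrophages, averaged 0.676 ± 0.280 CPM in KO and 0.245 ± 0.0525 CPM in WT livers (SD, n = 4 each), and did not pass (log2 fold change 1.45, SE 0.39, edgeR adjusted p = 0.0926).

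Of 23 genes for signals of recruitment and survival 16 were tested, and all 16 were positive, with a median log2 fold change of 0.58 and 8 at an unadjusted p under 0.05, but edgeR called none, while DESeq2 called 3. The shares over all genes were 50.7% positive, 9.61% higher at that p, 2.06% called by edgeR and 5.8% called by DESeq2. Csf1, the growth factor that maintains macrophages, was at 7.73, 9.65, 9.0 and 7.37 CPM in KO livers, against 5.91, 3.98, 5.90 and 5.81 CPM in WT livers. Every KO liver lay above every WT liver, and the fitted log2 fold change, 0.64 (SE 0.16), had an edgeR adjusted p of 0.0736, while DESeq2 called the gene (adjusted p = 0.0119). Cx3cl1, the ligand of Cx3cr1, was at 0.853, 1.27, 0.640 and 0.818 CPM in KO livers, against 0.406, 0.388, 0.295 and 0.434 CPM in WT livers, again without overlap (log2 fold change 1.23, SE 0.31, edgeR adjusted p = 0.0816). Such separation held for 2 of the 16, where it held for 5.52% of all genes, and these 2 were named for the smallest p of the list. With each liver left out in turn, edgeR adjusted p-values ran from 0.0616 to 0.200 for Csf1 and from 0.0940 to 0.212 for Cx3cl1.

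Of 12 class II pathway genes 9 were tested, 7 were positive with a median log2 fold change of 0.23, 1 was higher and 1 lower at an unadjusted p under 0.05, and edgeR called none. Among all tested genes, 50.7% were positive, 9.61% were higher and 8.9% lower at that p, and edgeR called 2.06%. Ciita, the master transactivator of class II genes, was at 1.30, 1.54, 1.23 and 1.30 CPM in KO livers, against 0.767, 0.631, 0.674 and 0.477 CPM in WT livers. The highest WT liver lay below the lowest KO liver, and the log2 fold change was 1.07 (SE 0.24), just outside the threshold with edgeR (adjusted p = 0.0519) and inside it with DESeq2 (adjusted p = 0.0262). Such separation held for 1 of the 9, where it held for 5.52% of all genes, and Ciita was named for its small p. Its edgeR adjusted p ran from 0.0723 to 0.146 with each liver left out in turn. Rfxap, a subunit of the RFX complex that binds the X box, averaged 7.77 ± 0.736 CPM in KO and 9.51 ± 1.28 CPM in WT livers (SD, n = 4 each), a log2 fold change of -0.29 (SE 0.13, edgeR adjusted p = 0.261).

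Markers of other cells moved with genotype in part, and their part in these results was not tested. The 11 neutrophil markers summed to 1.12, 2.37, 1.51 and 1.5 CPM in KO livers, against 0.632, 2.14, 1.35 and 0.477 CPM in WT livers, with 1 of the 11 tested and Ly6g and Mpo at 0 in all 8 livers. The 5 B cell markers, none of them tested, summed to 0.225 to 2.37 CPM in KO livers, against 0.477 to 1.05 CPM in WT livers, and KO 2, the highest liver for class II, was also the highest here. KO 4, the next for class II, was at 0.716 CPM here, below WT 2 and WT 3 at 0.970 and 1.05 CPM. The 8 dendritic cell markers summed to 7.66 to 9.24 CPM in KO livers, against 6.89 to 7.90 CPM in WT livers, and the 10 T and NK cell markers to 1.62 to 3.31 CPM in KO livers, against 1.65 to 2.98 CPM in WT livers. The 6 cholangiocyte markers summed to 203.4, 362.9, 114.7 and 197.4 CPM in KO livers, against 41.7, 63.8, 25.6 and 27.1 CPM in WT livers, and KO 2 was again the highest. Nearly all of that sum was Spp1, with 4343, 8929, 2347 and 5505 counts in KO livers, where Sox9, the next, had 70, 120, 75 and 166. Sox9 was highest in KO 4 and Krt7 in KO 1, so the order of the sum is that of Spp1. Of the 5 tested cholangiocyte markers edgeR called 3 higher in KO, Spp1 (log2 fold change 2.59, adjusted p = 0.0359), Krt19 (1.71, adjusted p = 0.0467) and Epcam (1.48, adjusted p = 0.0216). Of all tested genes, 0.849% were called higher. When single livers were left out, Spp1 kept its call only without KO 3 or WT 2, Krt19 only without WT 2, and Epcam only without KO 3, KO 4, WT 1 or WT 2, and the lost calls had adjusted p-values of 0.0512 to 0.119. The 8 stellate cell markers summed to 243.5, 447.9, 225.3 and 242.9 CPM in KO livers, against 181.3, 130.8, 249.2 and 233.0 CPM in WT livers. The 9 markers of sinusoidal endothelium summed to 191.3 to 255.7 CPM in KO livers, against 166.9 to 208.1 CPM in WT livers, and the 4 erythroid markers to 128.4 to 219.0 CPM in KO livers, against 184.8 to 345.0 CPM in WT livers. The erythroid gene Alas2, for the first enzyme of heme synthesis, was called lower in KO (log2 fold change -1.10, edgeR adjusted p = 0.00407).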

How the data were processed

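The libraries of 8 mouse livers were made from polyadenylated RNA with a stranded TruSeq kit, per the labels' protocols. Tools listed in the submitters' processing notes are DESeq2, RSEM 1.2.22, STAR 2.5.1, Trimmomatic 0.36 and Picard 1.84, with the build mm10. The deposited tables hold RSEM expected counts, which are estimated counts per gene, and TPM values that the authors scaled to gene length and a fixed total. Neither the annotation release nor the strand setting is given in the sources used here. Coordinates come from GENCODE M21, which held all 55450 gene identifiers.

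These counts, rounded to whole numbers, were tested with edgeR 4.0.16 (R 4.3.3): filterByExpr by genotype (minimum count 10, minimum total 15, which left 13303 genes), TMM scaling, and the robust quasi-likelihood test, two-sided, with Benjamini-Hochberg adjustment over all tested genes and a threshold of 0.05. An SE is the size of the log2 fold change over the square root of F. Ranks of members and ratios of single genes are in TPM. Ratios of class sums are in CPM, which is not scaled to gene length, and serve to compare livers, not classes. The share of Spp1 in its sum was read from counts. The 34 members, the further lists and the marker lists were chosen with earlier results of these data known, and no list was tested as a list. Named beside the members are the targeted gene and, of each further list, the 2 genes with the smallest p and every gene called. A result of the further macrophage list that this rule names is not reported here. No pair of livers agreed within sampling noise. Alternatives were no filter, RLE factors, scaling by library size alone, 1 CPM in 4 livers, DESeq2 1.42.0, limma 3.58.1 (voom, and log2 of TPM plus 1 or 0.1), no robust estimation, a replicate block and each liver left out in turn; a fit without WT 2 and KO 4 was chosen after seeing the data. Motifs were matched on the RefSeq windows of GRCm38.p6. Figures were drawn with matplotlib 3.10.9.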

Additional observations from a re-analysis of the deposited data

Results flagged for a closer look

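Of 80 groups of 4 livers examined, the CPM of each member and of each class sum in each genotype, 2 had a liver far from the other 3 by Dixon's criterion, for which chance gives about 1 in 20. Fcer1g was at 5.54 CPM in KO 2, where the gap to the next KO liver was 0.929 of the range of the KO livers. Gpnmb was at 1.78 CPM in KO 2, where that gap was 0.941 of the range. KO 2 is also the liver with the highest level of 25 of the 31 tested members. No cause was tested.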

How the results depend on the processing

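No member passed the threshold when any single liver was left out, where 0.805% (without KO 2) to 2.77% (without KO 4) of all genes did. Of 587 results for single members under 19 alternatives, 579 kept their direction and their side of the threshold. Passing were Lyz2, H2-Ab1 and H2-Eb1 with DESeq2 (3 members) and Clec4f with the replicate block (1 member, adjusted p = 0.0411). Of all genes, DESeq2 called 5.8% and the replicate block 1.32%. Correlations of the deviations of same-numbered livers over all tested genes were 0.207, 0.009, -0.024 and -0.067. What the numbers mark is not given in the labels and was not tested. Signs turned for Marco without KO 4 (log2 fold change -0.039, and up to 0.98 without WT 3) and for Fcer1g without KO 2 (-0.19), WT 1 (-0.21) or WT 4 (-0.12), with up to 0.24 without WT 2.

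Over all genes 274 were called, with 850 by DESeq2, 176 with the replicate block, 431 without WT 2 and KO 4, and 108 to 372 when single livers were left out. The split of 113 higher and 161 lower became 161 and 115 with library size alone, 144 and 84 on log2(TPM + 0.1) and 151 and 86 on log2(TPM + 1), where the median of all genes moved to 0.07, 0.12 and 0.09. The members' median moved with it, to 0.62, 0.70 and 0.61. The 17 members at an unadjusted p under 0.05 became 6 (without KO 2) to 22 (without KO 1, or without WT 2), with 10, 8, 8 and 7 without KO 3, KO 4, WT 1 and WT 4. Over all genes, 9.61% were higher at that p in the main fit. With single livers left out that share ran from 6.81% (without KO 2) to 10.9% (without KO 4). Separation of all KO from all WT livers was seen for 1 member (5.52% of all genes), for 2 in TPM (10.2% of all genes), for 3 without WT 2 and KO 4 (12.7% of all genes), and for 1 to 15 when single livers were left out (6.49% to 10.1% of all genes). The log2 ratio of the lipid-associated sum was 0.65, and 1.29 without Lgals3, where KO 2 holds most of the remaining KO counts. The causes of these shifts were not tested. Depth limits Ly6c2, Trem2 and Gpnmb, which had too few counts for the test, and the other monocyte genes.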

Other observations

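Among genes too scarce for the test, Ccl2, the chemokine that Ccr2 senses, had 6, 46, 12 and 15 counts in KO livers 1 to 4, against 6, 1, 3 and 1 counts in WT livers 1 to 4. Mmp12, the macrophage elastase, had 6, 57, 17 and 5 counts in KO livers, against 5, 5, 12 and 2 counts in WT livers. Most of the KO counts of both genes lay in KO 2, the liver that also held most of the Gpnmb counts. The collagen gene Col1a1 was at 8.80, 52.3, 5.80 and 7.95 CPM in KO livers, against 3.29, 6.94, 4.09 and 5.99 CPM in WT livers, with KO 2 again the highest. These 3 genes were chosen after their values were seen.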
